A study of Homo sapiens with 6 samples.

Results

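Expression of 33 human genes of glucose uptake, glycolysis and the hypoxia response was compared by RNA sequencing between DKO1 cells and parental HCT116 cells. HCT116 is an established human colorectal cancer cell line. The 3 DKO1 samples are of 1 derived line, an HCT116 derivative that carries knockouts of DNMT1 and DNMT3B, both DNA methyltransferases, and the 3 wild-type (WT) samples are of the parent. Differences caused by loss of the 2 genes and other differences between the lines cannot be told apart. The culture medium was McCoy's 5A with serum for both, and the labels name no hypoxia treatment. The 33 genes were picked by symbol, and each matched 1 of the 57820 human gene rows of the table. They were split by role into 20 genes of glucose uptake and glycolysis and 13 of the hypoxia response. Values are in TPM, a transcript abundance that divides by gene length and gives each sample an equal sum.

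Glycolysis breaks glucose down to pyruvate in a fixed chain of enzymes, and cancer cells often turn much of that pyruvate into lactate even when oxygen is present. When oxygen is low, the prolyl hydroxylases EGLN1 and EGLN3 lose activity, the hypoxia-inducible factors (HIF) are no longer marked for degradation by VHL, and HIF dimers bind DNA at a short core motif written ACGTG or GCGTG. Several glycolytic genes and genes of blood vessel growth, pH control and mitophagy are known HIF targets. A CpG within the core motif can be methylated, and methylation there is known to hinder HIF binding.

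Promoter sequences were available from RefSeq, on build GRCh38.p14, for 29 of the 33 genes, as windows of 250 bases before the annotated start site and 50 from it. SLC2A3, NDRG1, BNIP3L and VEGFA were not among them. Only the first listed window of each gene was taken, and the start site used in these cells was not determined. The following 5 windows are shown because they belong to members that passed the test in either direction (ADM, ANKRD37, HK2 and LDHA) or to the hypoxia marker that stayed near 0 in both lines (CA9). Capitals mark ACGTG or GCGTG on either strand, so CACGT and CACGC are their reverse complements, and CACGTG holds an ACGTG match on both strands. All 5 run 5′ to 3′ on the plus strand.
ADM, chr11:10304823-10305122: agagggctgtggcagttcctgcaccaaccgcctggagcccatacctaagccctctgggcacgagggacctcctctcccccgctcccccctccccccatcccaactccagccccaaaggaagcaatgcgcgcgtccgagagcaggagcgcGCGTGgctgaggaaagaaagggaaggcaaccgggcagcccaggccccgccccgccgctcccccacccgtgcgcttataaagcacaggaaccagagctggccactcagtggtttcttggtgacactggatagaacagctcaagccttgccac
ANKRD37, chr4:185396591-185396890: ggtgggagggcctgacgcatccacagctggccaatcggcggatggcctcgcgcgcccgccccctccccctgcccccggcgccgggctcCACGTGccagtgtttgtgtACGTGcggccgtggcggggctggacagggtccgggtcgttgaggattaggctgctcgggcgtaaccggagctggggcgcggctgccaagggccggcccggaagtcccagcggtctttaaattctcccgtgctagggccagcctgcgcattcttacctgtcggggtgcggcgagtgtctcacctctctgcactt
HK2, chr2:74833877-74834176: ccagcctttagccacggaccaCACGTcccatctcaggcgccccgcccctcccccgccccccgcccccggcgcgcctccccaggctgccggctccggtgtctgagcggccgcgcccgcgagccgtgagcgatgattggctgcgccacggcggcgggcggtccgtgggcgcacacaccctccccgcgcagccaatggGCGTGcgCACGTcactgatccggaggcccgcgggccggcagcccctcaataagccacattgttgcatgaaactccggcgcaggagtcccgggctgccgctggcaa
LDHA, chr11:18394313-18394612: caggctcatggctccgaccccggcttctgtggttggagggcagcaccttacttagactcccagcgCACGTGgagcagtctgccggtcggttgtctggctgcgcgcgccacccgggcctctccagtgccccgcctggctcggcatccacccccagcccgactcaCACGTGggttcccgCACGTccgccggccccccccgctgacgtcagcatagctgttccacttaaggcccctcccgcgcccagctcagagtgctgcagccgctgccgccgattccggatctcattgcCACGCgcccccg
CA9, chr9:35673678-35673977: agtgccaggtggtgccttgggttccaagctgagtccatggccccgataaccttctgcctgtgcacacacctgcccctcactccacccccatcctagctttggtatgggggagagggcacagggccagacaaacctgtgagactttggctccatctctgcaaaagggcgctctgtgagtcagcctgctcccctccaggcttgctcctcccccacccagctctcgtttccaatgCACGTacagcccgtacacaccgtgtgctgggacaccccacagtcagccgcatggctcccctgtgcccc
The ADM window holds 1 match, the ANKRD37 and HK2 windows 3 each, the LDHA window 6 and the CA9 window 1, counting both strands. The CA9 match begins at position -18 from the start site and the ADM match at -101.

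The libraries were checked against their labels with a few values. DNMT1 averaged 36.2 ± 9.17 TPM in DKO1 and 242 ± 9.81 TPM in WT (SD, n = 3 each, limma adjusted p = 3.59e-05), and DNMT3B 4.42 ± 0.75 TPM in DKO1 and 7.36 ± 0.76 TPM in WT (adjusted p = 0.03). Of 12 epithelial markers, 8 reached 1 TPM in every sample, with EPCAM between 371 and 536 TPM, while of the 11 blood and stromal markers in the table none reached 1 TPM in any sample. Mitochondrially encoded transcripts took 26.9%, 27.7% and 21.25% of TPM in DKO1 replicates 1, 2 and 3 and 19.7% to 20.05% in WT, so all other genes share a smaller total in DKO1. Of the epithelial markers, CDH1, CLDN4 and ESRP1 rose in DKO1 (ESRP1 had an adjusted p of 0.06 and 0.0933 on dropping WT replicate 2 or 3), and KRT8 and KRT18 were lower with the block described next and not without it (adjusted p = 0.011 and 0.047). ELF3 was under 1 TPM in every WT sample and CDX2 in every DKO1 sample, so their direction was set by the filter on low values, and the part of these differences in the results was not tested. Samples with the same replicate number deviated from their group means together (correlations over tested genes of 0.35, 0.57 and 0.27 for numbers 1, 2 and 3). Those of unlike numbers ran from -0.38 to 0.13, and deviations from a mean of 3 samples are not independent of each other. A fit with the replicate number as a block is therefore given wherever it changes the call of a member or of another named gene.

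Most glycolytic genes did not pass the test, while the carrier SLC2A3, the hexokinase HK2, the lactate dehydrogenase LDHA and 5 hypoxia genes changed. Of the 33 members, 32 had at least 1 TPM in at least 3 samples and were tested among 13604 genes, and CA9 did not pass this filter. Higher in DKO1 were 5 members, SLC2A3, NDRG1, BNIP3L, ADM and ANKRD37, and lower were 3, HK2, VEGFA and LDHA, at an adjusted p below 0.05 (limma on log2(TPM + 1), Benjamini-Hochberg over all tested genes). The remaining 24 did not pass. These counts are 15.6% and 9.38% of the tested members, against 18.8% higher and 9.60% lower among all tested genes, so in this fit the share called was near or below the background. With the GC correction described below, the share called lower was above that of all genes. The median log2 fold change (DKO1 minus WT) was 0.05 for the members and 0.07 for all tested genes. The DKO1 and WT values did not overlap for 12 members, 7 above and 5 below WT, which is 37.5% against 45.4% of all tested genes (27.5% above and 17.8% below). With the replicate number as a block, 7 members were higher and 4 lower, against 22.4% higher and 13.4% lower among all tested genes.

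The calls were also counted by role. Among the 20 genes of glucose uptake and glycolysis, 1 rose (5.0%), 2 fell (10.0%) and 17 did not pass, with a median log2 fold change of -0.03. Among the 12 tested hypoxia response genes, 4 rose (33.3%), 1 fell (8.33%) and 7 did not pass, with a median of 0.22. Among all tested genes 18.8% were higher and 9.60% lower, so the share called lower was near the background in both groups. The share of hypoxia genes called higher rests on 4 genes. Without DKO1 replicate 2 the order of the medians turned, to 0.19 for glycolysis and 0.10 for the hypoxia genes, and with the GC correction described below they were -0.25 and 0.21. The difference between the 2 groups of genes was not tested. In all tested genes 66.2% of calls were higher, and 48.4% under quantile normalization (1817 higher and 1939 lower). Removing a trend with transcript GC from each sample, an alternative added after the data were seen, gave 55.3% (2569 and 2076). Of the 32 tested members, 6 were then higher and 9 lower, against 19.4% higher and 15.7% lower among all genes. The share of members called lower was thus above that of all genes in that fit.

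**Figure D1:**
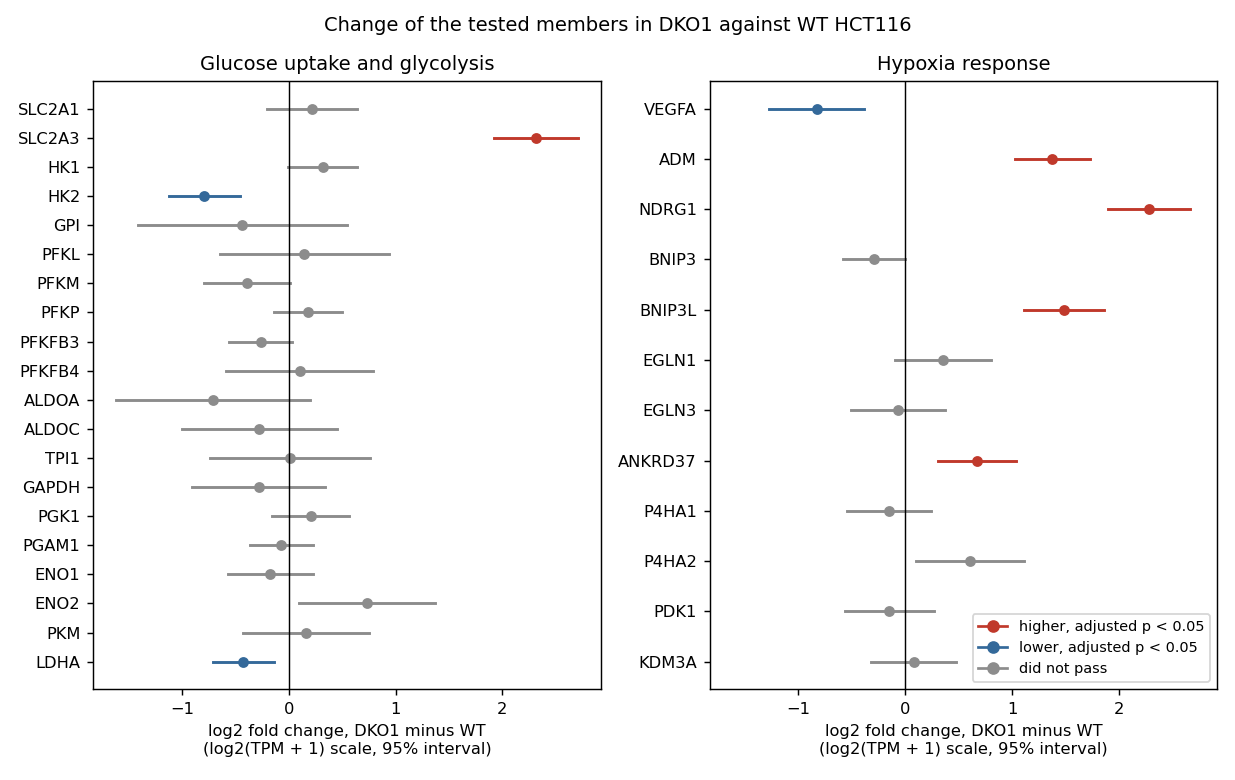
Log2 fold change, DKO1 minus WT on the log2(TPM + 1) scale, of the 32 tested members with its 95% confidence interval from limma, by role. The 5 red genes rose and the 3 blue genes fell at an adjusted p below 0.05, and the other glycolytic intervals include 0, except that of ENO2.

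Glucose enters the cell through SLC2A1 (GLUT1) and SLC2A3 (GLUT3), the high-affinity carrier typical of neurons. SLC2A3 (ENSG00000059804.11, chromosome 12) had 12.8, 12.2 and 9.65 TPM in DKO1, against 1.40, 1.77 and 1.38 TPM in WT. The lowest DKO1 sample was thus well above the highest WT sample, and the gene was 7.61-fold higher (log2 fold change 2.31, SE 0.17, adjusted p = 6.85e-05). SLC2A1, the broadly expressed carrier, had 37.9, 27.6 and 38.1 TPM in DKO1 and 35.4, 26.6 and 26.6 TPM in WT. Its groups overlapped and it did not pass (95% interval of the log2 fold change -0.21 to 0.64). SLC2A14, a close duplicate of SLC2A3 that can share its reads, was listed at 0.17, 0.30 and 0.12 TPM in DKO1 and at 0.03, 0 and 0 TPM in WT, so the pair together shows the same pattern.

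Hexokinases trap glucose in the cell by phosphorylating it. HK2 (ENSG00000159399.5, chromosome 2), the inducible isozyme that many tumours use, had 10.0, 11.6 and 12.4 TPM in DKO1, against 18.8, 20.2 and 22.0 TPM in WT. All 3 DKO1 values were below the WT values, and HK2 was 1.79-fold lower in DKO1 (log2 fold change -0.79, SE 0.14, adjusted p = 0.00552). HK1, the housekeeping isozyme, had 50.4, 41.2 and 44.2 TPM in DKO1 and 40.1, 36.4 and 31.9 TPM in WT. Its DKO1 values were all above the WT values, but it did not pass (adjusted p = 0.125, interval -0.0019 to 0.64).

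The enzymes between the first step and phosphoglycerate did not pass. Phosphofructokinase commits the sugar to glycolysis, and its platelet-type subunit PFKP was the main form, at 139 ± 22.1 TPM in DKO1 and 121 ± 3.13 TPM in WT (SD, n = 3 each). The muscle-type subunit PFKM was at 34.8 ± 5.14 TPM in DKO1 and 46.1 ± 8.13 TPM in WT, and the liver-type subunit PFKL at 1.62 ± 1.23 TPM in DKO1 and 1.26 ± 0.57 TPM in WT. PFKFB3 and PFKFB4 make and remove fructose 2,6-bisphosphate, the activator of phosphofructokinase. PFKFB3 was at 11.7 ± 0.33 TPM in DKO1 and 14.2 ± 0.44 TPM in WT, with no overlap, and did not pass (adjusted p = 0.16). PFKFB4 was at 2.91 ± 1.09 TPM in DKO1 and 2.66 ± 1.13 TPM in WT. The isomerase GPI was at 42.5 ± 21.2 TPM in DKO1 and 53.05 ± 13.7 TPM in WT. ALDOA, the main aldolase, which cleaves the sugar, had 58.1, 24.9 and 70.5 TPM in DKO1, against 91.4, 54.7 and 91.5 TPM in WT, and did not pass (adjusted p = 0.217). With the replicate number as a block ALDOA was lower in DKO1 (log2 fold change -0.71, SE 0.15, adjusted p = 0.0142), since replicate 2 was the lowest of its group in both lines. The brain-type aldolase ALDOC was at 7.57 ± 2.93 TPM in DKO1 and 9.07 ± 2.30 TPM in WT.

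The enzymes of the lower part of the chain were the most abundant members. GAPDH, which makes the first NADH of the chain, was at 711 ± 222 TPM in DKO1 and 844 ± 164 TPM in WT. TPI1, which interconverts the products of aldolase, was at 375 ± 144 TPM in DKO1 and 357 ± 77.8 TPM in WT. PGK1, which makes the first ATP, was at 546 ± 90.7 TPM in DKO1 and 470 ± 53.5 TPM in WT. PGAM1, the mutase, was at 283 ± 38.8 TPM in DKO1 and 295 ± 17.0 TPM in WT. ENO1, the main enolase, was at 1008 ± 188 TPM in DKO1 and 1128 ± 131 TPM in WT, and PKM, the pyruvate kinase, at 656 ± 202 TPM in DKO1 and 571 ± 94.5 TPM in WT. Each of these 6 overlapped between the groups. ENO2, the neuron-typical enolase, had 26.3, 15.3 and 30.4 TPM in DKO1, against 16.6, 10.8 and 13.6 TPM in WT, and did not pass (adjusted p = 0.083). With the replicate number as a block ENO2 was higher in DKO1 (log2 fold change 0.73, SE 0.16, adjusted p = 0.0146). ENO2 was also called higher after rescaling without mitochondrial and spike-in rows (adjusted p = 0.0378) and without DKO1 replicate 2 (0.0113). It did not pass on dropping any other sample (0.101 to 0.234) or under quantile normalization (0.0667). ENO2 overlaps the gene LRRC23 on the same strand, which was at 7.16 to 12.4 TPM over the 6 samples.

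Lactate dehydrogenase turns pyruvate into lactate. LDHA (ENSG00000134333.9, chromosome 11), the subunit that favours this direction, was the most abundant member in both lines. It had 1397, 1319 and 1464 TPM in DKO1, against 1742, 1770 and 2123 TPM in WT. The DKO1 values were all below the WT values, and LDHA was 1.35-fold lower in DKO1 (log2 fold change -0.43, SE 0.12, adjusted p = 0.0374). The adjusted p missed the threshold when DKO1 replicate 1 or 2 was left out (0.087 and 0.0658) and when WT replicate 1, 2 or 3 was (0.0778, 0.0916 and 0.158). It also missed it under quantile normalization (0.193), after rescaling to nuclear genes (0.102), with no filter (0.0679) and with no variance trend (0.0539). Reads of processed pseudogenes named for these enzymes could be mixed with their parents, but the summed listed TPM of such pseudogenes was at most 1.005% of the parent for the 15 members that had any, other than BNIP3 at 5.58%.

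The 20 genes of glucose uptake and glycolysis summed to 5988, 4225 and 5956 TPM in DKO1, against 6166, 5197 and 6547 TPM in WT. The groups overlapped, and replicate 2 was the lowest in each line. Without DKO1 replicate 2 the difference of the means, DKO1 minus WT, was 1.94 TPM, against -580.2 TPM with all samples.

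**Figure D2:**
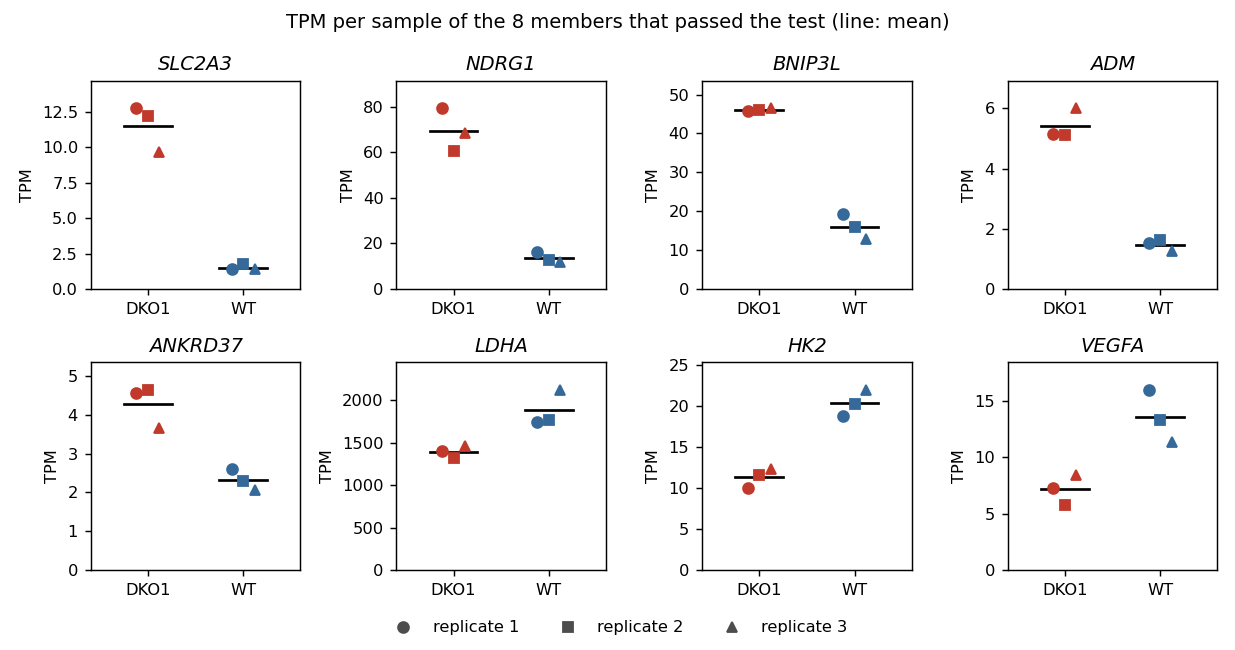
TPM in each sample of the 8 members that passed the test, DKO1 in red and WT in blue, with replicate numbers as symbols and the group mean as a line, each axis from 0. SLC2A3, NDRG1, BNIP3L, ADM and ANKRD37 lay above all WT values in DKO1, and LDHA, HK2 and VEGFA lay below them.

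The hypoxia response genes moved in both directions. NDRG1 (ENSG00000104419.10, chromosome 8), a stress-responsive gene often described as a metastasis suppressor, had 79.4, 60.7 and 68.5 TPM in DKO1, against 16.1, 12.6 and 11.8 TPM in WT. The groups were far apart, and NDRG1 was 5.14-fold higher in DKO1 (log2 fold change 2.28, SE 0.16, adjusted p = 6.19e-05). By mean TPM it ranked 9 among the 33 members in DKO1 and 24 in WT. BNIP3L (ENSG00000104765.10, chromosome 8), a receptor that directs mitochondria to autophagy, had 45.8, 46.1 and 46.5 TPM in DKO1, against 19.2, 16.1 and 12.8 TPM in WT. The 3 DKO1 values were nearly equal, and BNIP3L was 2.88-fold higher (log2 fold change 1.49, SE 0.16, adjusted p = 0.00043). The gene PNMA2, antisense to BNIP3L, was at 3.73, 3.85 and 3.07 TPM in DKO1 and at 0.10, 0.06 and 0.04 TPM in WT, and whether counting used the strand is not given in the sources used here.

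ADM (ENSG00000148926.5, chromosome 11), the vasodilator peptide adrenomedullin, had 5.16, 5.12 and 6.01 TPM in DKO1, against 1.54, 1.64 and 1.25 TPM in WT. It was 3.68-fold higher with no overlap (log2 fold change 1.38, SE 0.15, adjusted p = 0.000469). ANKRD37 (ENSG00000186352.4, chromosome 4), an ankyrin repeat gene used as a hypoxia marker, had 4.55, 4.64 and 3.66 TPM in DKO1, against 2.60, 2.29 and 2.06 TPM in WT. It was 1.85-fold higher (log2 fold change 0.67, SE 0.16, adjusted p = 0.0175). That call was lost under quantile normalization (adjusted p = 0.303), on dropping DKO1 replicate 1 (0.0554) and on dropping WT replicate 2 or 3 (0.0709 and 0.0832), and the antisense gene UFSP2 was at 27.7 to 43.7 TPM.

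VEGFA (ENSG00000112715.16, chromosome 6), the growth factor of blood vessels and a standard HIF target, went the other way. It had 7.34, 5.83 and 8.42 TPM in DKO1, against 16.01, 13.3 and 11.3 TPM in WT. No value overlapped, and VEGFA was 1.88-fold lower in DKO1 (log2 fold change -0.83, SE 0.19, adjusted p = 0.0158). Without WT replicate 1 or 2 the adjusted p was 0.0666 and 0.0582.

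The other hypoxia members did not pass. CA9, the tumour-associated carbonic anhydrase and a widely used hypoxia marker, was listed at 0.42, 0.08 and 0.13 TPM in DKO1 and at 0, 0.03 and 0.09 TPM in WT, and was not tested. BNIP3, the close relative of BNIP3L, was at 34.5 ± 4.04 TPM in DKO1 and 42.2 ± 0.58 TPM in WT, below WT in every DKO1 sample (adjusted p = 0.124). The adjusted p of BNIP3 was 0.0479 without DKO1 replicate 3, and 0.178 to 0.279 on dropping any other sample. Of the oxygen sensors, EGLN1 had 48.1, 63.2 and 40.7 TPM in DKO1, against 38.1, 46.1 and 33.4 TPM in WT (adjusted p = 0.217). It passed with the replicate number as a block (log2 fold change 0.35, SE 0.11, adjusted p = 0.0443). EGLN3 was at 4.41 ± 0.92 TPM in DKO1 and 4.63 ± 0.65 TPM in WT. Of the collagen prolyl hydroxylase subunits, P4HA2 was at 24.9 ± 4.83 TPM in DKO1 and 16.02 ± 3.64 TPM in WT with no overlap (adjusted p = 0.0734). Its adjusted p was 0.0327 both after rescaling to nuclear genes and without DKO1 replicate 2, and it passed in no other alternative. P4HA1 was at 43.0 ± 6.84 TPM in DKO1 and 47.9 ± 7.27 TPM in WT. PDK1, which restrains pyruvate dehydrogenase, had a log2 fold change of -0.15 (95% interval -0.57 to 0.27), and KDM3A, a histone H3K9 demethylase, one of 0.08 (-0.32 to 0.48).

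A share within a sample does not depend on how that sample was scaled, so 11 pairs of isozymes or paralogs were compared. Tests were on log2 ratios of TPM + 1, which do depend on scale for low genes. A trend with transcript GC, described below, need not cancel within a pair. With 3 against 3 samples an exact permutation test cannot go below p = 0.1 (two-sided). Groups that do not overlap always give that value, so the test adds nothing to the lack of overlap. The log2 ratios of 6 pairs did not overlap (exact p = 0.1, and 0.183 after adjustment over the 11 pairs). The share of pairs without overlap among other genes was not computed. Of all tested single genes, 45.4% did not overlap. SLC2A3 made up 25.2%, 30.7% and 20.2% of the summed TPM of SLC2A3 and SLC2A1 in DKO1, against 3.80%, 6.24% and 4.94% in WT. HK2 made up 16.6%, 22.0% and 21.9% of HK2 and HK1 in DKO1, against 31.95%, 35.7% and 40.9% in WT. BNIP3L was the larger of the BNIP3 pair in DKO1, at 57.3% ± 2.77, and the smaller in WT, at 27.35% ± 3.90 (SD, n = 3 each). In these 3 pairs the mix differed between the lines by more than the spread between replicates. SLC2A3, HK2 and BNIP3L had passed the test above on the same values, so these shares are no separate support for their calls.

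ENO2 made up 2.29% ± 0.42 of the enolase pair in DKO1 and 1.19% ± 0.17 in WT. LDHB made up 45.5% ± 3.05 of the LDHB and LDHA pair in DKO1 and 51.7% ± 1.34 in WT, and the PFKM to PFKL ratio was also lower (log2 difference -0.54). With a pseudocount of 0.1 the exact p of the PFKM to PFKL ratio was 0.5. The log2 ratios of the other 5 pairs overlapped. For aldolase this depended on the pseudocount, since the share of ALDOC did not overlap, at 13.3% ± 1.83 in DKO1 and 10.4% ± 1.11 in WT, and its exact p was 0.2, or 0.1 with a pseudocount of 0.1. P4HA2 made up 36.8% ± 7.76 of the P4HA pair in DKO1 and 24.9% ± 3.00 in WT. PFKP accounted for 82.0%, 78.4% and 77.1% of the summed TPM of the 3 phosphofructokinase genes in DKO1, against 69.7%, 76.2% and 70.4% in WT.

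**Figure D3:**
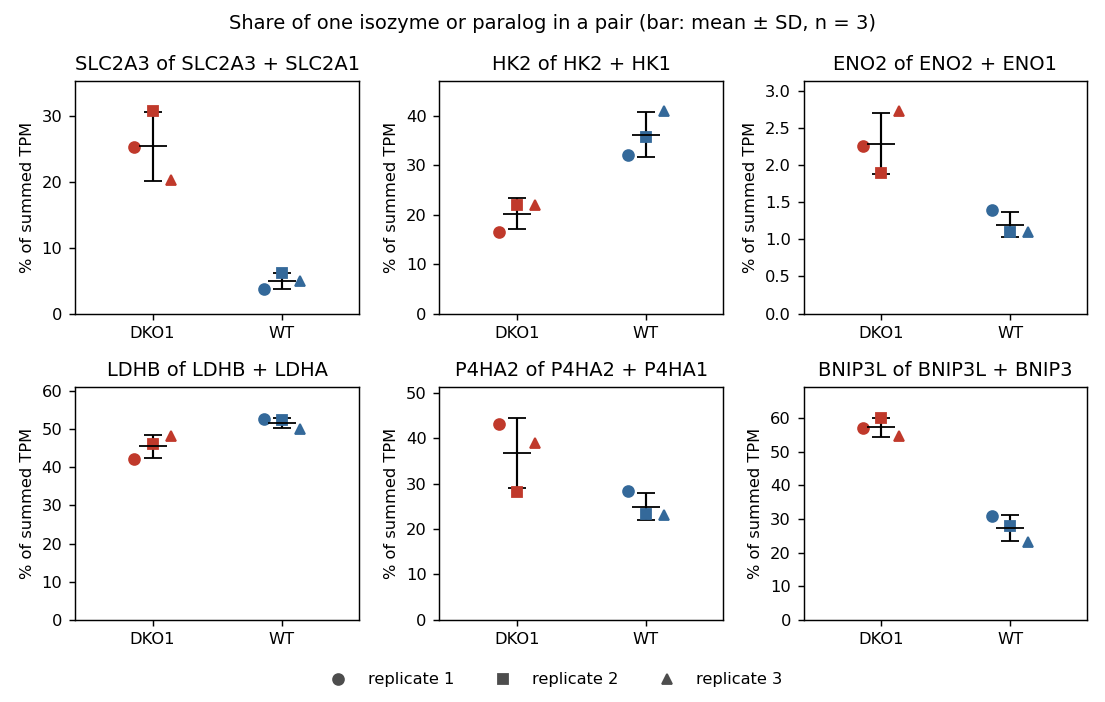
Share of the first gene in the summed TPM of a pair, in percent, per sample, with the mean and SD of 3 samples. SLC2A3, ENO2 and BNIP3L took a larger share in DKO1 than in any WT sample, HK2 and LDHB a smaller one, and P4HA2 overlapped.

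Replicate 2 stood apart for the glycolytic genes in both lines. Of the 20 members of glucose uptake and glycolysis, 17 were lower in replicate 2 than in the mean of replicates 1 and 3 in both DKO1 and WT, which is 85.0% against 37.0% of all tested genes. The median deviation of these 20 was -0.47 in DKO1 and -0.36 in WT on the log2(TPM + 1) scale, against 0.04 and 0.12 for the 12 tested hypoxia genes. Their transcripts were richer in G and C, with a median GC of 53.8% (range 43.3% to 64.1%), against 46.65% for the hypoxia genes and 46.7% for all tested genes with a transcript sequence. In all tested genes the deviation of replicate 2 followed GC. Its median was 0.10 in DKO1 and 0.14 in WT in the 2645 genes lowest in GC, and -0.64 in DKO1 and -0.27 in WT in the 2645 highest. In the 2645 genes with 49.3% to 55.5% GC, a range around the members' median, it was -0.20 in DKO1 and -0.09 in WT. The share lower in replicate 2 in both lines was 55.7% in that range and 78.4% in the 2645 highest.

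The fold change between the lines also ran with GC, with medians of -0.23 in the lowest 2645 genes and 0.19 in the highest 2645. With a GC trend removed from each sample, PFKM, PFKFB3, ALDOA, GAPDH, ENO1 and BNIP3 joined the genes called lower, and ENO2 those called higher. With the block as well, GPI and ALDOC were also called lower and EGLN1 higher. Of the 32 tested members, 7 were then higher and 11 lower, against 22.7% higher and 20.6% lower among all genes in that fit. With GC correction, the share of members called lower was thus above that of all genes in both fits. This correction removes any difference between the lines that runs with GC, whatever its source, and its part in the results above was not tested further. SLC2A3, NDRG1, BNIP3L, ADM and HK2 kept their call and direction under every alternative in which they were tested, with an adjusted p of at most 0.0366.

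**Figure D4:**
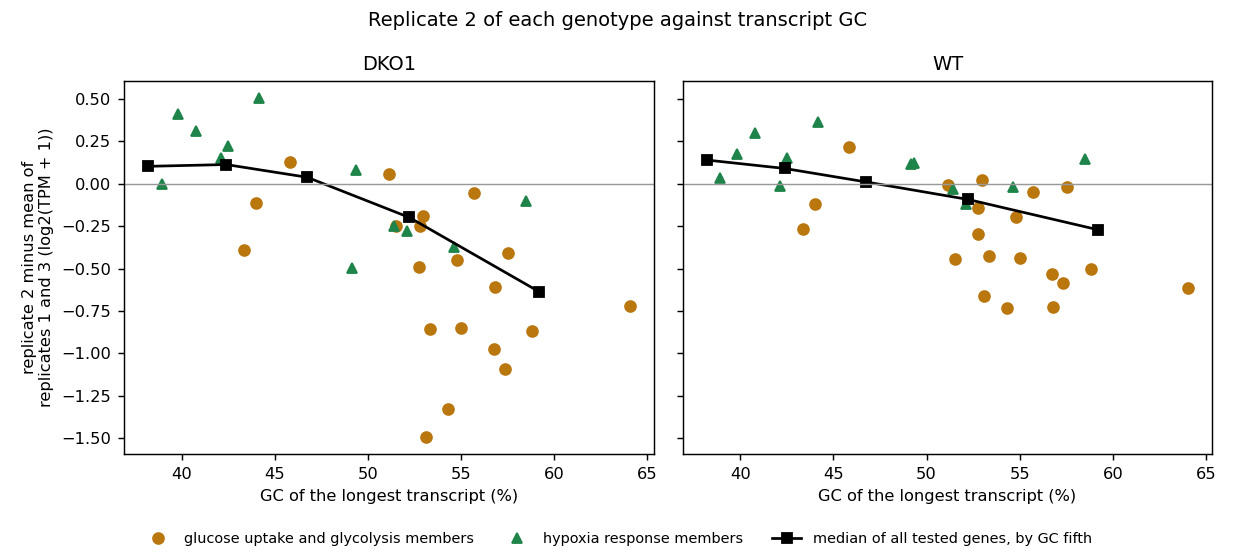
Deviation of replicate 2 from the mean of replicates 1 and 3, on the log2(TPM + 1) scale, against GC percent of the longest transcript, for the members and as medians of all tested genes in 5 equal bins of GC. Most glycolysis members lie below 0 in both lines, and the hypoxia members scatter around 0.

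Other genes of the same pathways were read from lists of isozymes, transporters and HIF pathway genes outside the 33 members. Among all tested genes 18.8% were called higher and 9.60% lower. No test was run on a list, so a count below is not read as a change of its pathway. Of 24 further glycolytic isozymes and regulators, 9 were tested, of which 2 rose and 1 fell. LDHB, the subunit typical of heart, fell to 1170 ± 175 TPM in DKO1, against 2006 ± 114 TPM in WT (limma adjusted p = 0.00479). PFKFB2, a relative of PFKFB3, rose to 19.7 ± 3.47 TPM in DKO1, against 10.5 ± 0.65 TPM in WT, and TIGAR, a p53-induced enzyme that lowers fructose 2,6-bisphosphate, to 43.1 ± 5.999 TPM in DKO1, against 28.3 ± 1.73 TPM in WT. The TIGAR call was lost on dropping any 1 WT sample (adjusted p 0.06 to 0.0842). The isozyme genes HK3, GAPDHS, PGK2, PGAM2 and PKLR were listed at 0.07 TPM or less in every sample.

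Of 19 further carriers of glucose, lactate and pyruvate, 12 were tested, of which 4 rose and 2 fell. The lactate carrier SLC16A1 (MCT1) fell to 90.6 ± 9.35 TPM in DKO1, against 151 ± 7.02 TPM in WT (limma adjusted p = 0.00291), and SLC16A7 (MCT2) to 3.80 ± 1.146 TPM in DKO1, against 7.39 ± 0.33 TPM in WT. BSG, a chaperone of SLC16A1, rose to 46.5 ± 2.63 TPM in DKO1, against 29.6 ± 1.96 TPM in WT. SLC2A12 and the sodium-coupled carrier SLC5A1 rose to 1.54 ± 0.32 and 1.09 ± 0.06 TPM in DKO1, against 0.53 ± 0.23 and 0.11 ± 0.08 TPM in WT. The lactate exporter SLC16A3 (MCT4), a HIF target, did not pass (adjusted p = 0.491). After GC correction the adjusted p was 0.154 for SLC16A7 and 0.198 for BSG. SLC16A7 also missed the threshold on dropping DKO1 replicate 1 (0.0631) or any 1 WT sample (0.0637 to 0.0701). SLC2A12 and SLC5A1 missed it under quantile normalization (0.76 and 0.875), and SLC2A12 on dropping WT replicate 2 or 3 (0.0718 and 0.0761). With the block, MPC2 was also higher (0.0219) and SLC2A11 lower (0.0488).

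Around pyruvate dehydrogenase, which passes pyruvate into the mitochondrion, 2 of 11 tested genes rose and 2 fell. The inhibitory kinases PDK2 and PDK4 rose to 5.89 ± 1.91 and 2.17 ± 0.30 TPM in DKO1, against 2.36 ± 0.93 and 0.68 ± 0.17 TPM in WT. The subunit DLAT fell to 81.4 ± 8.07 TPM in DKO1, against 108 ± 5.50 TPM in WT, and the activating phosphatase PDP1 to 199.5 ± 30.7 TPM in DKO1, against 276 ± 3.36 TPM in WT. The calls of DLAT, PDP1 and PDK2 were each lost in 7 alternatives, among them the loss of any 1 WT sample (adjusted p 0.0588 to 0.143) and quantile normalization, under which PDK4 was lost too (0.139). With the block DLD was also lower (0.0325). In the pentose phosphate pathway, 1 of 8 tested genes rose (TKTL1) and 2 fell (RPIA and RPE), while TALDO1 was higher with the block (adjusted p = 0.0271) and did not pass without it. RPE was lost after GC correction (0.0897) and on dropping any 1 WT sample (0.0641 to 0.0882), RPIA on dropping WT replicate 2 (0.053), and TKTL1 under quantile normalization (0.803). In gluconeogenesis and glycogen metabolism, 2 of 11 rose (PPP1R3C and PGM1) and 0 fell, and the PGM1 call was lost in 9 of 16 alternatives.

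HIF1A, the oxygen-regulated HIF subunit, was itself lower at the RNA level, at 59.5, 68.55 and 95.5 TPM in DKO1, against 111, 137 and 131 TPM in WT (log2 fold change -0.77, SE 0.19, limma adjusted p = 0.0194). Its adjusted p was 0.0544 on dropping DKO1 replicate 1, and 0.0745 and 0.0788 on dropping WT replicate 2 or 3. Of 16 tested genes of the HIF complex and its sensing machinery, 2 rose and 1 fell. CITED2, which competes with HIF1A for its coactivators, rose to 19.96 ± 5.10 TPM in DKO1, against 8.66 ± 0.65 TPM in WT (adjusted p = 0.0074), and OS9 to 62.4 ± 24.2 TPM in DKO1, against 30.4 ± 4.11 TPM in WT (adjusted p = 0.0482). The OS9 call was lost on dropping any 1 sample other than DKO1 replicate 2 (adjusted p 0.091 to 0.145). EPAS1 (HIF2A), ARNT, VHL and EGLN2 did not pass. HIF1AN, which hydroxylates HIF at an asparagine, had an adjusted p of 0.0515, and of 0.0199 with the replicate number as a block, under which CUL2 was lower (0.0272).

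Of 28 tested further HIF target genes, 8 rose, 2 fell and 18 did not pass. FAM162A fell to 78.0 ± 14.5 TPM in DKO1, against 116 ± 9.38 TPM in WT (limma adjusted p = 0.0264). STC2 fell to 13.1 ± 2.14 TPM in DKO1, against 19.4 ± 1.40 TPM in WT (adjusted p = 0.036). Whether these 2 calls held under the alternatives is not given here. FLT1 and STC1 are among the 8 and passed the filter on low values through DKO1 alone, so the count is not set against that of all genes. FLT1, a VEGF receptor, had 2.10, 1.91 and 2.07 TPM in DKO1, against 0.01, 0 and 0.02 TPM in WT. The collagen cross-linking enzyme gene LOXL2 was 4.73-fold and the chemokine receptor CXCR4 4.39-fold higher in DKO1. STC1, a secreted hormone whose call was lost under quantile normalization (adjusted p = 0.32), reached 1.25 ± 0.15 TPM in DKO1, against 0.03 ± 0.006 TPM in WT. SLC5A1, SLC2A12, PDK4, PPP1R3C and TKTL1, given above, were likewise under 1 TPM in every WT sample, so they had to be higher in DKO1 to be tested.

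Promoter features of the members were set beside those of other genes as a description only. Several members are known HIF targets, so their share of the core motif is not independent of the choice of genes. In the 29 windows with a RefSeq sequence, the core motif ACGTG stood in 13 and GCGTG in 13, and 21 held at least 1 of them (72.4%), on either strand. The shares over the 14263 windows of the same length of tested genes, which can hold more than 1 per gene, were 25.9% for ACGTG, 48.9% for GCGTG and 61.25% for either. The promoters of members had a median of 29 CpG, against 25 for those of tested genes and 14 for all 35114 promoters. HK1, PGAM1, PDK1 and CA9 had the fewest, with 1, 5, 6 and 7 CpG, and BNIP3 the most, with 48. These counts are of the first listed window of each member, and other start sites were not examined.

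Among the called members with a sequence, ADM had 16 CpG and 1 motif match, ANKRD37 30 CpG and 3, HK2 38 CpG and 3, and LDHA 29 CpG and 6. A match describes these letters in this window, and no methylation value was used here.

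**Figure D5:**
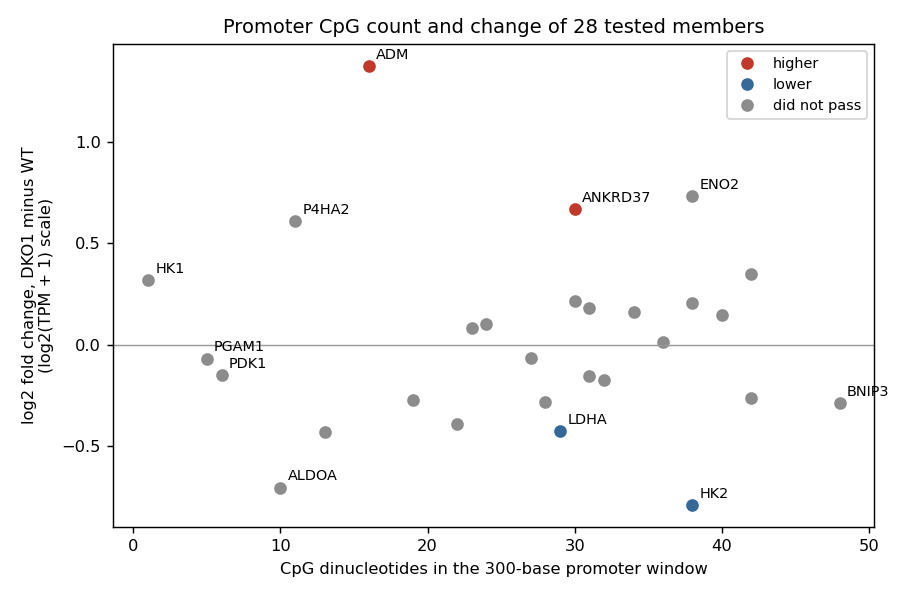
Log2 fold change, DKO1 minus WT on the log2(TPM + 1) scale, against the number of CpG dinucleotides in the 300-base promoter window, for the 28 tested members with a RefSeq window (the first listed of each gene). The called genes ADM, ANKRD37, HK2 and LDHA have between 16 and 38 CpG, and genes that did not pass span 1 to 48.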

How the data were processed

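RNA was measured in 3 DKO1 and 3 WT samples. The labels' protocols give TRIzol extraction and a stranded kit for messenger RNA. The deposited values are TPM per gene, made by the authors and given to 2 decimals. The submitters' processing notes name, with no role or order, STAR 2.5.3a, Trim Galore 0.4.0, RSEM 1.2.21, FastQC and edgeR 3.12.1, and the builds hg19 and GRCh37. Neither annotation release nor strand setting is given in the sources. TPM keeps no record of depth, so depth is unknown and no counting interval is given. The table held 57897 rows, of which 77 named like spike-in RNAs stayed out of tests.

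Symbols came from a reference gene table by Ensembl identifier. The 13604 genes that reached 1 TPM in 3 or more samples were tested with limma 3.58.1 in R 4.3.3 on log2(TPM + 1), with genotype alone as a term and a trended variance. The Benjamini-Hochberg threshold was 0.05. Folds are ratios of mean TPM, given where both means reach 0.5 TPM. Fold changes on the log2(TPM + 1) scale understate those of low genes. The fit was checked on simulated data with independent noise. These held no trend with replicate number or GC, so the check does not cover such trends. Whether replicates were separate cultures is not stated, so the p-values cover the spread of these samples alone, possibly a technical one. The labels state no pairing of the numbers, so the block rests on the correlations given above. Every same-number correlation was above those of unlike numbers (highest 0.13), most clearly for number 2. Transcript GC is that of the longest GENCODE 29 transcript. Ratios were tested with SciPy 1.17.1. Called members are given in every sample, and up to 5 called genes of each other list are named by size of change, any other named gene having been chosen after its values were seen. Members and lists were chosen with earlier results of these data known.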

Additional observations from a re-analysis of the deposited data

How the results depend on the processing

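The 8 calls kept their direction under every alternative tried (another pseudocount or filter, 3 scalings, no variance trend, a replicate block, GC correction with and without the block, and each sample left out). The adjusted p of all 5 others stayed under the threshold wherever they were tested, and the calls that were lost are those of LDHA, VEGFA and ANKRD37, as given above. Higher genes among all tested numbered 4400 with no filter, 1145 with a mean of at least 5 TPM and 1705 to 2842 with 1 sample left out, the lowest without WT replicate 3. Lower genes numbered 2076 with GC correction, 2728 with GC correction and block, and 524 to 2079 with 1 sample left out. Quantile normalization moved the median of all genes to -0.07.

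Higher members numbered 3 above a mean of 5 TPM, where ADM and ANKRD37 were not tested, and 4 to 7 with 1 sample left out. Lower members numbered 9 with GC correction, 11 with GC correction and block, and 1 to 4 with 1 sample left out, 1 without WT replicate 1 or 2. With the replicate block alone 7 members were higher and 4 lower (28 and 16 in the other lists), and among the members it changed the calls of ALDOA, ENO2 and EGLN1 and no other. In the 9 other lists, higher genes numbered 25 (10 above a mean of 5 TPM, 15 to 27 with 1 sample left out) and lower genes 11 (23 with GC correction and block, 2 to 18 with 1 sample left out).

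Signs of members that did not pass were unstable. With GC correction, with or without the block, log2 fold changes turned to -0.0076 for SLC2A1, -0.0442 for PFKL, -0.0427 for PFKP, -0.124 for PFKFB4, -0.2116 for TPI1, -0.0586 for PKM and 0.009 for PDK1. Quantile normalization gave -0.4508 for PFKL, -0.294 for PFKFB4 and 0.0614 for PGAM1, median-ratio scaling -0.0066 for TPI1, and rescaling without mitochondrial and spike-in rows 0.0429 for PGAM1 and 0.0262 for EGLN3. With 1 sample left out the ranges were -0.7433 to 0.065 for GPI, -0.213 to 0.3887 for PFKL, -0.1401 to 0.3203 for PFKFB4, -0.464 to 0.0497 for ALDOC, -0.215 to 0.3777 for TPI1, -0.4567 to 0.0079 for GAPDH, -0.175 to 0.0137 for PGAM1, -0.0092 to 0.4466 for PKM, -0.179 to 0.0709 for EGLN3 and -0.0241 to 0.2593 for KDM3A. The PFKP to PFKL log2 ratio difference was -0.0215 with a pseudocount of 0.1 and -0.1766 to 0.3498 with 1 sample left out. The cause was not tested.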
